A study of Mus musculus with 8 samples.

Results

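The genes described here encode 9 subunits of Polycomb repressive complex 1 (PRC1). They were chosen by symbol, as subunits that are known to replace each other when ESCs differentiate: the chromobox genes *Cbx2*, *Cbx6*, *Cbx7* and *Cbx8*, the Pcgf genes *Pcgf2*, *Pcgf6* and *Bmi1*, and the ubiquitin ligase genes *Ring1* and *Rnf2*. All 9 were among the 26263 genes of the count tables, and all 9 were among the 16399 genes with enough reads to be tested. RNA-seq had been performed in embryonic stem cells (ESCs) and in neural precursor cells (NPCs), with 2 replicates in each of 4 groups, which gives 8 libraries. The B/J groups came from the male line BJE2, whose mother was B6 and whose father was JF1, and the J/B groups from the male line JBE6, of the reciprocal cross. ESCs had been grown with LIF, BMP4 and a GSK3-β inhibitor. NPCs had been collected at day 12 of *in vitro* corticogenesis, on Matrigel, in defined medium with B27 lacking vitamin A and with dorsomorphin homolog 1, a blocker of BMP signalling. Each cross is represented by 1 cell line, so cross and line cannot be told apart. The labels do not say whether replicates were separate cultures, so the p-values measure the spread between these libraries, which may be partly technical.

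PRC1 is a set of complexes that repress genes, among them many developmental regulators that are held silent in ESCs. Each complex has a catalytic core of Ring1 or Rnf2, the ligases that attach ubiquitin to histone H2A, and 1 Pcgf protein, which defines the type of complex. Canonical PRC1, built on Pcgf2 (Mel18) or Bmi1 (Pcgf4), also carries a Cbx protein, whose chromodomain binds the histone mark left by PRC2, and a Phc protein. Variant PRC1 carries Rybp or Yaf2 in place of the Cbx protein and can hold any Pcgf protein. Pcgf6 belongs to the variant complex PRC1.6, which also contains Max, Mga, E2f6 and L3mbtl2 and is known for silencing germline genes in ESCs. Cbx7 is known as the main Cbx protein of pluripotent cells, and Cbx2 and Cbx8 as replacements for it in differentiating cells.

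The chromobox genes lie in pairs on 2 chromosomes. In the GENCODE annotation of GRCm39, the assembly also called mm39, *Cbx2* (chr11:118913788-118922100, plus strand) and *Cbx8* (chr11:118927131-118931795, minus strand) are neighbours, with annotated starts 18.0 kb apart. *Cbx6* (chr15:79708097-79718889) and *Cbx7* (chr15:79800001-79855320) are both on the minus strand, with starts 136.4 kb apart. *Pcgf2* (chr11:97579647-97591690, minus strand) shares chromosome 11 with *Cbx2* but is 21322.1 kb from *Cbx2*. The other genes are dispersed, with *Bmi1* at chr2:18681292-18691441 (plus strand), *Pcgf6* at chr19:47022052-47039418, *Ring1* at chr17:34239766-34243654 and *Rnf2* at chr1:151333755-151376729 (all 3 on the minus strand).

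The 250 bases before the RefSeq transcription start are shown for *Cbx7* with *Cbx8* and for *Pcgf2* with *Bmi1*, since in each of these pairs of paralogs the genes changed in opposite directions. They are RefSeq promoter sequences (table of GRCm38.p6), read 5′ to 3′ on the strand of the gene, and each had 1 exact match on its chromosome of GRCm39. The RefSeq start is not the outermost start of GENCODE used for the positions above, so the sequences of *Cbx7*, *Pcgf2* and *Bmi1* lie inside the GENCODE gene, and that of *Cbx8* overlaps the start of the gene. Capitals mark the E-box CACGTG, which is the motif bound by Max and Mga, and the CCAAT box (CCAAT, or ATTGG on the other strand).
Cbx7 (chr15:79816848-79817097, minus strand): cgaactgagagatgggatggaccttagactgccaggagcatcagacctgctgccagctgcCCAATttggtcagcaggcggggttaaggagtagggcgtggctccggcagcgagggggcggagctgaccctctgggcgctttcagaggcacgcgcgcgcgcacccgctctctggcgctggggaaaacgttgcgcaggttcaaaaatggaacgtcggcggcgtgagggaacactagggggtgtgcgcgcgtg
Cbx8 (chr11:118931740-118931989, minus strand): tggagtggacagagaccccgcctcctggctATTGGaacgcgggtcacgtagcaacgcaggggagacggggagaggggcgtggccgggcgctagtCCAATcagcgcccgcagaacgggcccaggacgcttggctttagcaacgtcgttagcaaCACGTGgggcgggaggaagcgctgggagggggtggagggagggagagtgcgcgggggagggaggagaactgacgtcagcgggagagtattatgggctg
Pcgf2 (chr11:97590475-97590724, minus strand): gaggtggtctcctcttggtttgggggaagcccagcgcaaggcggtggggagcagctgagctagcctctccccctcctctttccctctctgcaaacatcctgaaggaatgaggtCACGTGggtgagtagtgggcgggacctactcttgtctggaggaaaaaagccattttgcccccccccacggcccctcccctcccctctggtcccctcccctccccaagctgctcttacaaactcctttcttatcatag
Bmi1 (chr2:18681579-18681828, plus strand): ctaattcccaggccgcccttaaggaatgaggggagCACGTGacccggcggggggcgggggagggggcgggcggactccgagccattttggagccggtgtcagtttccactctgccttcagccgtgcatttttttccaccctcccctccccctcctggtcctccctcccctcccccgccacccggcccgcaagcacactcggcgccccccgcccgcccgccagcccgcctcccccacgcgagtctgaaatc
The *Cbx8*, *Pcgf2* and *Bmi1* promoters each hold 1 E-box, and the *Cbx7* promoter holds none. *Cbx7* has 1 CCAAT box and *Cbx8* has 2. Of the 8 genes with a promoter in the table, 4 hold an E-box, the fourth being *Cbx6*. Among all 32851 promoters of the same length, 6.02% hold it, and among the 5896 with at least 20 CG dinucleotides 10.1% do. *Cbx7* (23 CG), *Cbx8* (22), *Bmi1* (21), *Cbx6* (20), *Rnf2* (20) and *Ring1* (30) reach that number, whereas *Pcgf6* has 14 and *Pcgf2* has 5, beside a median of 6 over all promoters. The E2F motif TTCCCGC, searched on both strands, was in none of the 8 promoters and in 3.82% of all. The GC box GGGCGG, also on both strands, was in each of the 8, from 1 copy to 6 copies in *Bmi1*, and in 32.7% of all. The E-box promoters belong to genes that rose and to genes that fell between the stages, and a match is a description of the sequence only. *Cbx2* has no entry.

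The libraries held 22537138 to 32706015 reads on genes. Levels are given as CPM, the counts scaled to a common library size, with TMM factors (TMM CPM), a scaling that sets the typical gene equal between libraries, and 1 count corresponded to 0.0256 to 0.0533 TMM CPM. NPCs were compared with ESCs with edgeR's quasi-likelihood test and Benjamini-Hochberg adjustment over all 16399 genes, and a gene was called at an adjusted p below 0.05. Every adjusted p below is from that test unless another is named. The labels were checked against markers: 10 of 10 pluripotency markers were lower in NPCs (summed level 6502 to 10700 TMM CPM in ESCs, 188 to 467 in NPCs) and 9 of 10 neural precursor markers were higher (327 to 436 in ESCs, 747 to 1779 in NPCs). Markers of other cells were also higher in NPCs, with 10 of 10 trophoblast markers (15.1 to 89.0, then 1000 to 2869), 9 of 10 fibroblast markers (8.99 to 82.0, then 785 to 1771) and 8 of 10 neuronal markers (365 to 551, then 387 to 1917). Of the neuronal markers, *Stmn2* was lower (-1.51, adjusted p = 0.00950). Of the precursor markers, *Pax6* did not pass (1.77, adjusted p = 0.0606). It was at 1.23 to 16.9 TMM CPM in ESCs and at 6.98 to 45.9 in NPCs. Of the markers tested in the other lists, 4 of 9 glial, 6 of 8 endodermal and 4 of 10 mesodermal ones were higher, and 2, 1 and 2 were lower, beside 37.5% of all genes higher and 31.9% lower. No marker of the trophoblast, fibroblast and neuronal lists was at 0 in all NPC libraries, and among ESCs only *Tpbpa*, *Prl3d1* and *Fap* of these lists were. Their part in the changes of the PRC1 genes was not tested. In bulk libraries, fewer cells of a type and less RNA per cell cannot be told apart.

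Of the 9 PRC1 genes, 8 changed between ESCs and NPCs over both crosses, 4 upward (*Cbx2*, *Cbx8*, *Bmi1*, *Ring1*) and 4 downward (*Cbx6*, *Cbx7*, *Pcgf2*, *Pcgf6*). The stages differed in most of the transcriptome, so this count has a high background: 69.4% of all genes tested were called, 37.5% as higher and 31.9% as lower. The 4 ESC and the 4 NPC libraries did not overlap for 8 of the 9 genes, beside 66.5% of all genes. The median log2 fold change of the 9 genes was -0.41, beside 0.17 over all genes, and the median size of the change without its sign was 1.38, beside 1.18. *Cbx8* and *Cbx7* had the largest changes of the 9. A change at least as large as that of *Cbx8* was found in 11.7% of all genes, and one at least as large as that of *Cbx7* in 19.98%.

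**Figure D1:**
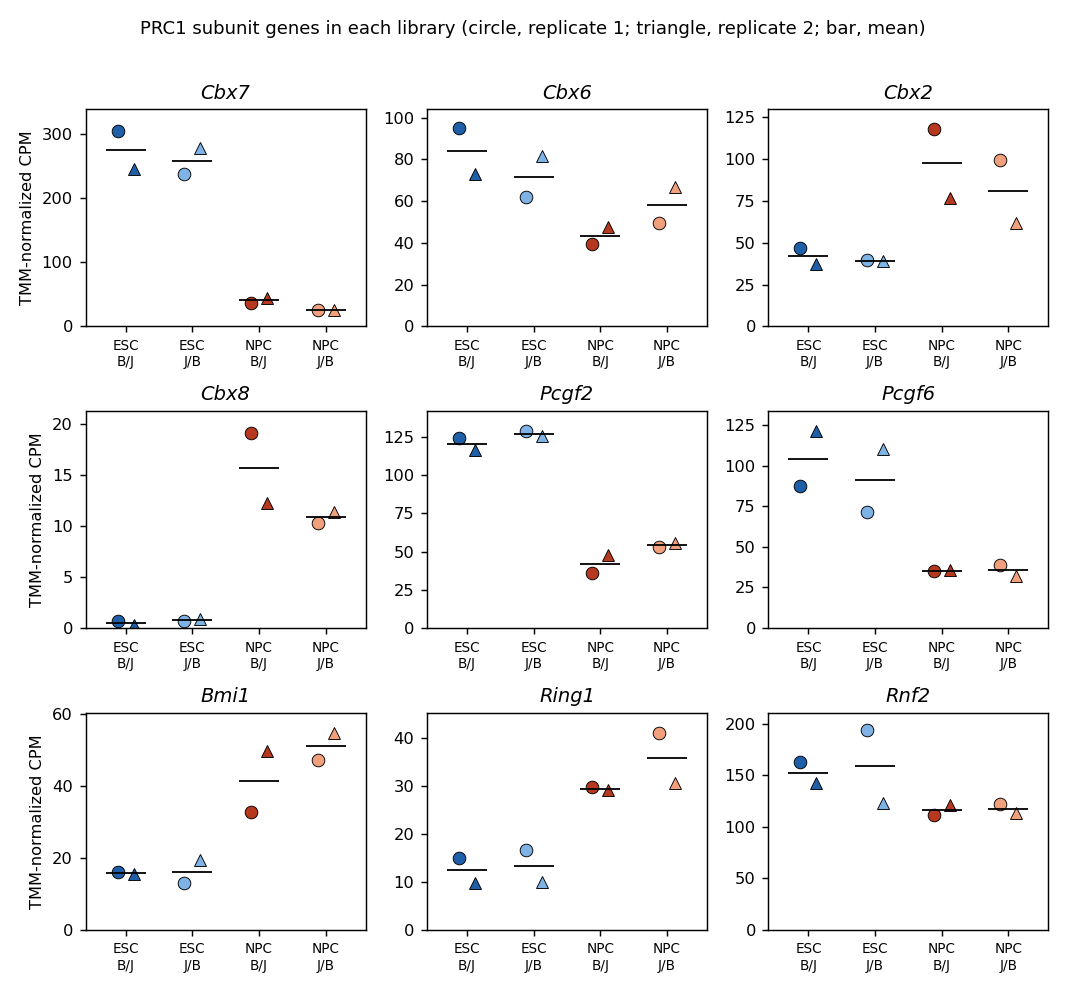
Level of each of the 9 genes in the 8 libraries, in TMM-normalized CPM on a linear axis from 0 (circles, replicate 1; triangles, replicate 2; bars, group means). *Cbx7*, *Pcgf2* and *Pcgf6* have all 4 NPC libraries below all 4 ESC libraries, *Cbx2*, *Cbx8*, *Bmi1* and *Ring1* are higher, and *Cbx6* overlaps between the stages.

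*Cbx7*, the chromobox gene of pluripotent cells, was high in ESCs and low in NPCs. It was read at 305 and 246 TMM CPM in the B/J ESCs and at 238 and 279 in the J/B ESCs, and at 37.1 and 44.3 in the B/J NPCs and 25.8 and 25.6 in the J/B NPCs. The lowest ESC library was thus far above the highest NPC library, and the J/B NPCs were below the B/J NPCs. The mean fell from 267 ± 30.9 (SD, n = 4) to 33.2 ± 9.17 (n = 4), which is 8.04-fold, with a log2 fold change of -3.04 ± 0.144 (SE) and an adjusted p of 9.60e-06. Relative to the median gene, the change was -3.22.

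*Cbx8*, a chromobox gene known to be switched on in differentiating cells, was close to the limit of detection in ESCs. It had 16 and 8 reads in the B/J ESCs and 13 and 21 in the J/B ESCs, or 0.695, 0.342, 0.693 and 0.895 TMM CPM. Over the 4 ESC libraries these 58 reads correspond to 0.654 CPM, with an exact 95% Poisson interval of 0.497 to 0.846 CPM that covers counting error only. In NPCs *Cbx8* was read at 19.1 and 12.2 TMM CPM in B/J and at 10.3 and 11.4 in J/B, from 352 to 669 reads. Every NPC library was above every ESC library, and the highest was B/J replicate 1. The mean rose from 0.656 ± 0.230 to 13.2 ± 3.96 (n = 4 each), with a log2 fold change of 4.33 ± 0.352 (SE) and an adjusted p of 4.24e-05.

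*Cbx2*, whose protein is known for compacting chromatin, was read at 46.9 and 37.5 TMM CPM in the B/J ESCs, at 39.9 and 38.9 in the J/B ESCs, at 118 and 76.9 in the B/J NPCs and at 99.7 and 61.6 in the J/B NPCs. The ESC libraries were close together and the NPC libraries were all higher and more spread, with replicate 1 above replicate 2 in both crosses. *Cbx2* rose from 40.8 ± 4.17 to 89.1 ± 24.9 (n = 4 each; log2 fold change 1.12 ± 0.212, adjusted p = 0.00207). In NPCs the order of *Cbx2* over the libraries was that of the summed trophoblast markers (2869 in B/J replicate 1, 1524 in J/B replicate 1, 1443 in B/J replicate 2, 1000 in J/B replicate 2) and the reverse of the order of the neuronal markers (387, 995, 1411 and 1917). The part of these cells in the level of *Cbx2* was not tested.

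*Cbx6*, the neighbour of *Cbx7*, changed least of the 4. Its levels were 95.1 and 72.9 TMM CPM in the B/J ESCs, 61.9 and 81.6 in the J/B ESCs, 39.5 and 47.5 in the B/J NPCs and 49.6 and 66.8 in the J/B NPCs. The stages overlapped, since NPC J/B replicate 2 was above ESC J/B replicate 1. *Cbx6* fell from 77.9 ± 14.0 to 50.9 ± 11.5 (n = 4 each), with a log2 fold change of -0.63 ± 0.175 and an adjusted p of 0.0133, but this fall was -0.15 (adjusted p = 0.495) when libraries were scaled by their totals and 0.01 (adjusted p = 0.962) when scaled to *Gapdh*, *Gusb* and *Tbp*. It was also -0.52 (adjusted p = 0.0576) without ESC B/J replicate 1. *Cbx6* shares 5.31% of its exon bases with *Npcd* on the same strand. Adding the 0 to 26 reads per library of *Npcd* gave -0.61 (adjusted p = 0.0149). Reads of the shared bases may have been left out as ambiguous, so this sum cannot show the effect of the overlap.

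*Pcgf2* and *Bmi1*, the alternative Pcgf subunits of canonical PRC1, changed in opposite directions. *Pcgf2* was read at 124 and 116 TMM CPM in the B/J ESCs and at 129 and 125 in the J/B ESCs, and at 36.3 and 47.8 in the B/J NPCs and 52.7 and 55.3 in the J/B NPCs. The 4 ESC libraries were within a narrow range, far above the NPC libraries. *Pcgf2* fell from 123.6 ± 5.34 to 48.0 ± 8.43 (n = 4 each; log2 fold change -1.38 ± 0.133, adjusted p = 8.21e-05).

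*Bmi1*, known as a repressor of the *Cdkn2a* locus needed for the renewal of neural stem cells, was read at 15.9 and 15.5 TMM CPM in the B/J ESCs, at 13.0 and 19.3 in the J/B ESCs, at 32.7 and 49.7 in the B/J NPCs and at 47.2 and 54.6 in the J/B NPCs. All NPC libraries were above all ESC libraries, and NPC B/J replicate 1 was the lowest of the NPCs. *Bmi1* rose from 15.9 ± 2.59 to 46.0 ± 9.44 (n = 4 each; log2 fold change 1.52 ± 0.207, adjusted p = 3.92e-04). Its order over the NPC libraries was that of the neuronal marker sums given above, the reverse of the order of *Cbx2*, and the part of neurons in its level was not tested.

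*Pcgf6*, the subunit that defines PRC1.6, was read at 87.4 and 121 TMM CPM in the B/J ESCs and at 71.8 and 110.3 in the J/B ESCs, and at 35.2 and 35.5 in the B/J NPCs and 38.8 and 32.3 in the J/B NPCs. The ESC libraries were spread, with replicate 2 above replicate 1 in both crosses, and the NPC libraries were close together and all lower. *Pcgf6* fell from 97.7 ± 22.4 to 35.5 ± 2.68 (n = 4 each; log2 fold change -1.46 ± 0.189, adjusted p = 3.12e-04).

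The ligase genes differed in how far they changed. *Ring1* (Ring1A) was read at 15.1 and 9.84 TMM CPM in the B/J ESCs, at 16.8 and 10.02 in the J/B ESCs, at 29.8 and 29.3 in the B/J NPCs and at 41.2 and 30.6 in the J/B NPCs. Every NPC library was above every ESC library, with NPC J/B replicate 1 standing above the other NPC libraries. *Ring1* rose from 12.9 ± 3.53 to 32.7 ± 5.66 (n = 4 each; log2 fold change 1.33 ± 0.241, adjusted p = 0.00165).

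*Rnf2* (Ring1B), which is known as the more abundant ligase of ESCs, was read at 162 and 142 TMM CPM in the B/J ESCs, at 194 and 123 in the J/B ESCs, at 112 and 121 in the B/J NPCs and at 122 and 113 in the J/B NPCs. The ESC libraries were spread and the NPC libraries close together, just below the lowest ESC library. Its means were 155 ± 30.4 in ESCs and 117 ± 5.31 in NPCs (n = 4 each). The log2 fold change of -0.41 ± 0.163 (95% interval -0.79 to -0.03) did not pass after adjustment (adjusted p = 0.0532), and it was 0.07 when libraries were scaled by their totals and 0.23 when scaled to the 3 reference genes. It passed with a replicate block (-0.39, adjusted p = 0.0433), with additive terms for stage and cross (-0.41, adjusted p = 0.0376) and without ESC J/B replicate 2 (-0.55, adjusted p = 0.0100), and it was -0.23 (adjusted p = 0.178) without ESC J/B replicate 1.

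**Figure D2:**
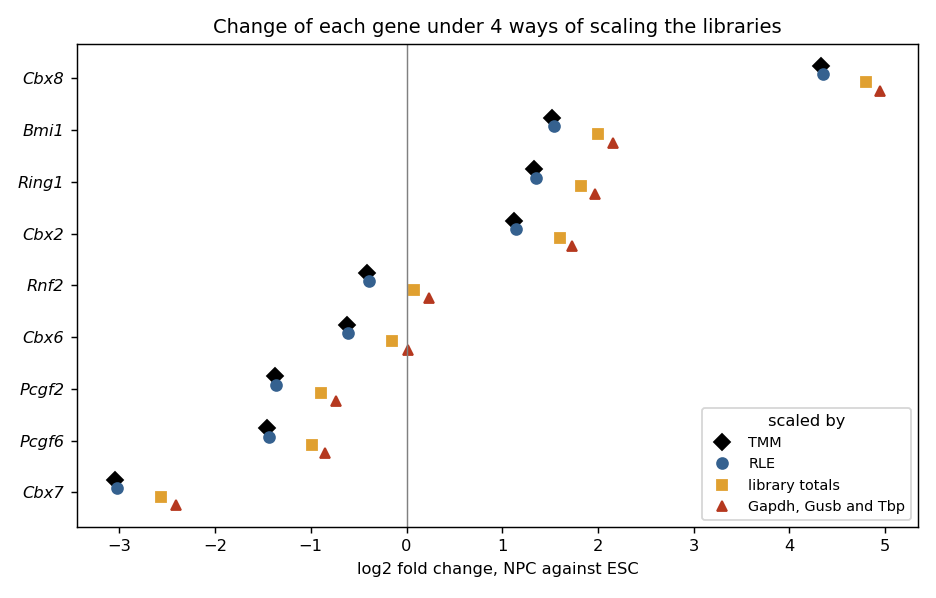
Log2 fold change of each gene between NPCs and ESCs over both crosses under 4 scalings of the libraries (TMM, RLE, library totals, and 3 reference genes, *Gapdh*, *Gusb* and *Tbp*). *Cbx8*, *Bmi1*, *Ring1* and *Cbx2* are above 0 and *Cbx7*, *Pcgf6* and *Pcgf2* below 0 under every scaling shown, whereas *Rnf2* and *Cbx6* move across or onto 0.

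The scaling shifted all genes together. The reference genes were not constant: with TMM, *Gapdh* (-1.43, adjusted p = 1.42e-04) and *Tbp* (-0.69, adjusted p = 0.00408) were lower in NPCs. *Gusb* was at 0.23 (adjusted p = 0.427). Over all genes the median was 0.17 with TMM, 0.19 with RLE (the size factors of DESeq2), 0.65 with library totals and 0.80 with the reference genes, and 54.0%, 54.6%, 70.1% and 75.0% of the genes called were higher in NPCs. Relative to that median, each of the 9 genes kept its value within a few hundredths. *Cbx8* was 4.16 above it with TMM and 4.15 with the reference genes. *Cbx7* was at -3.22 and -3.21, *Pcgf6* at -1.63 and -1.65, *Pcgf2* at -1.55 and -1.54, *Cbx6* at -0.80 and -0.79, and *Rnf2* at -0.58 and -0.57. *Bmi1* was at 1.35 and 1.36, *Ring1* at 1.16 and 1.17, and *Cbx2* at 0.95 and 0.93.

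The make-up of each set of paralogs was then described within libraries, which does not depend on the scaling between them. Counts were divided by the length of the exons annotated in GENCODE, and each gene was expressed as a share of its set. The authors had used refGene-derived gene models, whose exon lengths can differ from these. Since shares of a set sum to a fixed total, they were given without a test.

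Among the 4 chromobox genes described here, *Cbx7* held 70.3%, 70.9%, 70.8% and 71.8% in the ESC libraries, and 13.8%, 21.2%, 11.6% and 14.4% in the NPC libraries, in the order B/J replicates 1 and 2 and J/B replicates 1 and 2. Its share thus varied little among ESCs (70.9% ± 0.635) and was 15.2% ± 4.15 in NPCs. *Cbx2* held 16.02% ± 1.103 in ESCs and 59.0% ± 7.52 in NPCs, from 51.0% to 66.2%, and was the largest share of the 4 genes in each NPC library per kb, whereas without length *Cbx6* (40.4%) was above *Cbx2* (37.3%) in NPC J/B replicate 2. *Cbx8* went from 0.311% ± 0.104 to 10.7% ± 1.83. The share of *Cbx6* was 12.7% ± 0.936 in ESCs and 15.1% ± 5.91 in NPCs.

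In the Pcgf family, *Pcgf6* (34.7% ± 5.04) and *Pcgf2* (25.1% ± 3.23) held the largest shares in ESCs, and *Pcgf3* (29.9% ± 1.94) and *Bmi1* (23.6% ± 3.81) in NPCs. The place of *Bmi1* in NPCs depended on the length used. With the longest coding transcript it was at 17.8%, below *Pcgf3* (25.0%), *Pcgf6* (22.9%) and *Pcgf1* (18.6%), and without length at 15.02%, below *Pcgf3* (43.1%) and *Pcgf2* (15.7%). Per kb of exon, *Pcgf6* was at 14.3% ± 1.73 and *Pcgf2* at 10.7% ± 1.56 in NPCs, and *Bmi1* was at 7.33% ± 0.787 in ESCs. *Pcgf3* was at 17.6% ± 1.095 in ESCs, and *Pcgf1* was at 13.5% ± 3.21 and 16.3% ± 1.09. *Pcgf5*, the smallest share of the family per kb, was at 1.73% ± 0.415 and 5.26% ± 2.30. Without length it was at 3.52% and 10.8%, and *Pcgf1* was the smallest, at 3.12% and 3.81%. *Ring1* held 10.2% ± 1.12 of the ligase transcripts in ESCs and 27.7% ± 2.89 in NPCs, and *Rnf2* the remainder.

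**Figure D3:**
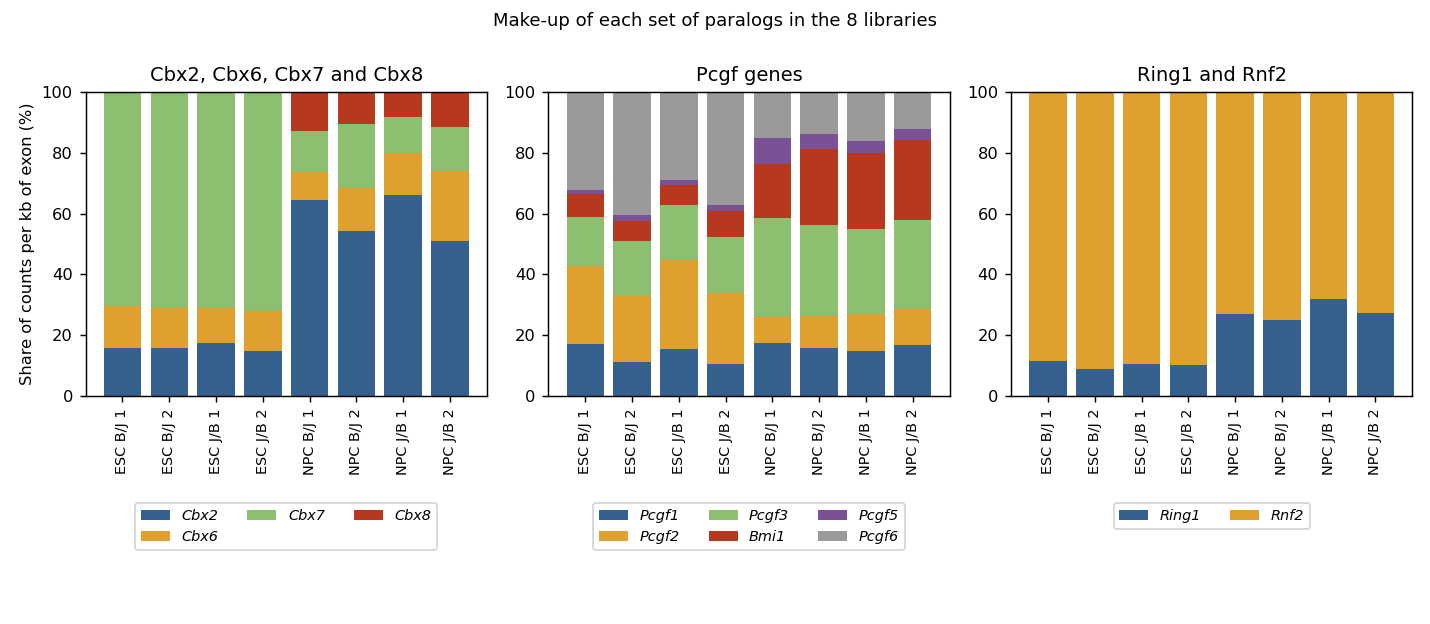
Share of each gene in the counts per kb of exon of its set (percent, stacked to 100), in each of the 8 libraries, for *Cbx2*, *Cbx6*, *Cbx7* and *Cbx8*, for the Pcgf genes, and *Ring1* with *Rnf2*. *Cbx7* fills about the same share of each ESC bar, 70.3% to 71.8%, and 11.6% to 21.2% of the NPC bars, where *Cbx2* is the largest.

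Ratios between paralogs were taken per kb for 7 chosen pairs. Most of them set a gene that was lower in NPCs against one that was higher, so they restate the changes above. The ratio of *Cbx7* to *Cbx2* was 4.05 to 4.86 in ESCs and 0.175 to 0.391 in NPCs. *Cbx7* exceeded *Cbx8* by 174-fold to 402-fold in ESCs, where the count of *Cbx8* is small, and by 1.09-fold to 2.03-fold in NPCs. The ratio of *Cbx7* to *Cbx6* was 5.59 ± 0.439 and 1.12 ± 0.461. Among the Pcgf genes, the ratio of *Pcgf2* to *Bmi1* was 2.83 to 4.32 in ESCs and 0.418 to 0.485 in NPCs, a narrow range over both crosses. The ratio of *Pcgf6* to *Bmi1* was 4.77 ± 0.872 and 0.622 ± 0.160. The ratio of *Pcgf6* to *Pcgf2*, genes that fell together, was 1.42 ± 0.378 and 1.35 ± 0.283 and overlapped. These ratios depend on the length used. With the longest coding transcript, *Pcgf6* (15.6 TMM CPM per kb) was above *Bmi1* (12.2) in NPCs, and without length *Pcgf2* was at 48.0 and *Bmi1* at 46.0 TMM CPM there. *Rnf2* exceeded *Ring1* in every library, 8.90-fold ± 1.15 in ESCs and 2.64-fold ± 0.358 in NPCs.

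Per kb of exon, the order of the 9 genes in ESCs was *Cbx7* (40.6 ± 4.71 TMM CPM per kb), *Rnf2* (33.4 ± 6.53), *Pcgf6* (16.7 ± 3.83), *Pcgf2* (11.9 ± 0.512), *Cbx2* (9.15 ± 0.936), *Cbx6* (7.34 ± 1.32), *Ring1* (3.82 ± 1.04), *Bmi1* (3.51 ± 0.571) and *Cbx8* (0.179 ± 0.0626). The neighbours *Cbx7* and *Rnf2*, *Pcgf6* and *Pcgf2*, *Cbx2* and *Cbx6*, and *Ring1* and *Bmi1* overlapped in their ranges over the 4 libraries, and the steps between these pairs did not. In NPCs the order was *Rnf2* (25.1 ± 1.14), *Cbx2* (19.99 ± 5.58), *Bmi1* (10.2 ± 2.08), *Ring1* (9.68 ± 1.67), *Pcgf6* (6.07 ± 0.458), *Cbx7* (5.05 ± 1.40), *Cbx6* (4.80 ± 1.08), *Pcgf2* (4.61 ± 0.808) and *Cbx8* (3.60 ± 1.08). *Rnf2* and *Cbx2* overlapped, as did *Bmi1* and *Ring1*, and from *Pcgf6* to *Cbx8* each gene overlapped with the next. The order depends on the length used. With the longest coding transcript, *Pcgf6* (15.6) and *Ring1* (15.5) were above *Bmi1* (12.2) in NPCs, and *Cbx6* (10.6) was above *Cbx2* (10.2) in ESCs.

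Within each cross, 8 of the 9 genes were called in B/J (55.8% of all genes were) and 7 in J/B (54.5% of all genes). *Cbx7* was lower in NPCs by -2.76 in B/J (adjusted p = 1.46e-04) and -3.33 in J/B (adjusted p = 1.25e-04), and *Cbx8* higher by 4.91 (adjusted p = 3.50e-04) and 3.76 (adjusted p = 7.93e-04). *Pcgf2* was at -1.52 and -1.23, *Pcgf6* at -1.56 and -1.35, *Bmi1* at 1.39 and 1.66, *Ring1* at 1.24 and 1.42, and *Cbx2* at 1.21 and 1.03, with adjusted p-values from 6.13e-04 to 0.0207. With the reference genes, *Pcgf2* (-0.48, adjusted p = 0.133) and *Pcgf6* (-0.64, adjusted p = 0.122) did not pass in J/B. *Cbx6* passed in B/J (-0.95, adjusted p = 0.0137), though not with library totals (-0.47, adjusted p = 0.155) or the reference genes (-0.42, adjusted p = 0.298). In J/B its change was -0.30 (adjusted p = 0.325), and the difference between the crosses did not pass in the interaction test (0.65, unadjusted p = 0.102). *Rnf2* passed in neither cross (-0.39, adjusted p = 0.186, and -0.43, adjusted p = 0.145).

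**Figure D4:**
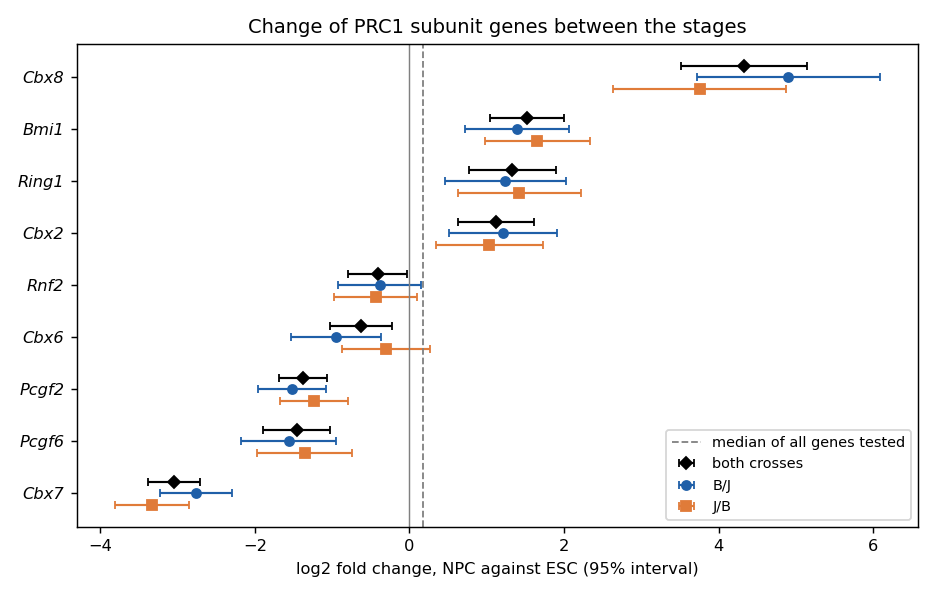
Log2 fold change of each gene between NPCs and ESCs with its 95% interval from edgeR, over both crosses (diamonds), in B/J (circles) and in J/B (squares). The dashed line is the median of all genes over both crosses, 0.17, and the intervals of the crosses overlap for each gene.

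With 2 libraries per group, leaving out 1 library leaves 1 in its group, and the other groups then supply the spread. Whether a gene passes in such a fit cannot show that its call rested on that library, so only the log2 fold changes are given. In B/J, with all libraries, *Cbx2* was at 1.21, *Cbx6* at -0.95 and *Ring1* at 1.24. Without NPC B/J replicate 1 these genes were at 0.87, -0.82 and 1.23. Without ESC B/J replicate 2, *Cbx2* was at 1.06 and *Ring1* at 0.97. *Cbx6* was at -0.74 without ESC B/J replicate 1, and *Ring1* at 1.26 without NPC B/J replicate 2. In J/B, *Cbx2* was at 1.03 with all libraries. It was at 1.05 without ESC replicate 1, at 1.04 without ESC replicate 2 and at 0.62 without NPC replicate 1. *Ring1* in J/B was at 1.17 without NPC replicate 1, against 1.42 with all libraries. *Rnf2* in J/B was at -0.71 without ESC replicate 2 and at -0.07 without ESC replicate 1, against -0.43 with all libraries. *Cbx7*, *Cbx8*, *Bmi1*, *Pcgf2* and *Pcgf6* kept their direction in both crosses whichever library was left out.

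For none of the 9 genes did a difference between the crosses pass the test. The interaction of stage and cross was called by edgeR for 0 of 16399 genes, or 0%, with 573 at an unadjusted p below 0.05, and DESeq2 called 11 genes and limma-voom 0. Among the 9, the lowest unadjusted p was that of *Cbx7* (-0.57, 95% interval -1.19 to 0.05, unadjusted p = 0.0664, edgeR). The interval of *Cbx8* was -2.65 to 0.35. Between J/B and B/J ESCs edgeR called 0 genes, or 0%, with 346 at an unadjusted p below 0.05, DESeq2 10 and limma-voom 0. Between J/B and B/J NPCs edgeR called 1 gene, or 0.0061%, which was none of the 9, with 1050 at an unadjusted p below 0.05, and DESeq2 called 70 genes and limma-voom 1. The nearest of the 9 was *Cbx7*, at 25.8 and 25.6 TMM CPM in J/B and 37.1 and 44.3 in B/J, with a log2 difference of -0.66 ± 0.191 (unadjusted p = 0.00861, adjusted p = 0.734, edgeR).

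Other subunits and partners of PRC1 were read from the same fit, together with 6 genes of the enzymes that act against its H2A mark and 3 HP1 chromobox genes. Of these 37 genes, all tested, 12 were higher and 19 lower in NPCs, beside 37.5% and 31.9% of all genes, with a median log2 fold change of -0.64 and a median size of 1.08, beside 0.17 and 1.18 for all genes. With library totals the counts were 13 and 15, and with the reference genes 14 and 13. Of 5 other canonical subunits, 2 rose, 1 fell and 2 did not pass, which is near the shares of all genes.

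The Phc subunits, which link canonical PRC1 complexes into larger assemblies, also differed among themselves. *Phc1* fell from 725 ± 23.7 to 104 ± 19.7 TMM CPM (log2 fold change -2.80, adjusted p = 1.76e-05), *Phc2* rose from 39.6 ± 5.76 to 142.6 ± 13.0 (1.85, adjusted p = 3.17e-05) and *Phc3* rose by 0.73 (adjusted p = 0.0228). The Scm proteins did not pass, with *Scmh1* at -0.26 (adjusted p = 0.290; above 0 with library totals and reference genes) and *Scml2* at 0.33 (adjusted p = 0.387; 0.81 with library totals, and 0.98 with an adjusted p of 0.0441 with the reference genes). Of the 3 Pcgf genes besides the members, *Pcgf3* (0.60, adjusted p = 0.00509) and *Pcgf5* (1.36, adjusted p = 0.00373) rose, and *Pcgf1*, of the complex PRC1.1, was at 0.13 (adjusted p = 0.603), but at 0.62 (adjusted p = 0.0315) with library totals and 0.78 (adjusted p = 0.0188) with the reference genes. Of the alternative subunits that replace a Cbx protein in variant PRC1, *Rybp* fell from 391 ± 26.9 to 177 ± 39.8 TMM CPM (-1.16, adjusted p = 1.54e-04) and *Yaf2* rose from 10.1 ± 3.70 to 38.3 ± 2.33 (1.93, adjusted p = 6.56e-04).

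Of the 6 partners of *Pcgf6* in PRC1.6, 5 fell, beside 31.9% of all genes called lower. The histone-binding *L3mbtl2* fell most (-2.46, adjusted p = 4.19e-05), and *E2f6* rose (0.51, adjusted p = 0.0183). The number that fell was 5 with library totals and 4 with the reference genes. Under these scalings 70.1% and 75.0% of all genes called were higher in NPCs. Of the 5 partners in PRC1.1, 2 rose, *Bcorl1* most (2.05, adjusted p = 2.45e-04), and 3 fell, the CpG-island-binding *Kdm2b* most (-2.27, adjusted p = 1.12e-04). Of the 7 in PRC1.3 and PRC1.5, 3 rose, *Auts2* most (1.71, adjusted p = 3.07e-04), and 3 fell, *Fbrsl1* most (-1.23, adjusted p = 8.43e-05). Of the 6 genes of the enzymes that remove ubiquitin from H2A and their cofactors, *Asxl3* rose (1.84, adjusted p = 0.00166) and 3 fell, *Asxl1* most (-1.58, adjusted p = 1.17e-04). The counts of these lists, PRC1.6 included, are small and are read beside the same 37.5% of all genes higher and 31.9% lower. They are no result about the complexes.

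**Figure D5:**
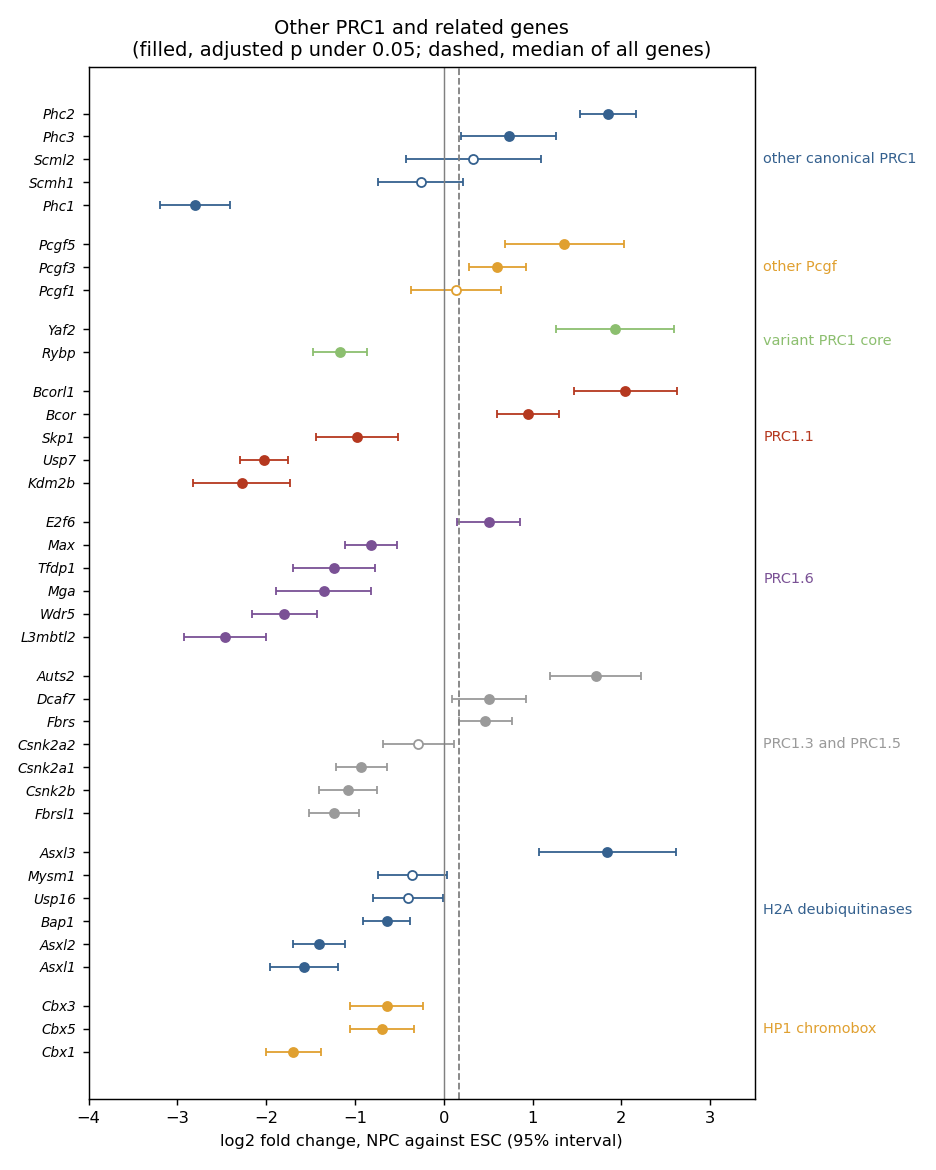
Log2 fold change between NPCs and ESCs over both crosses with its 95% interval from edgeR for 37 other PRC1 and related genes, grouped by complex (filled points, adjusted p below 0.05). *Bcorl1* is farthest to the right at 2.05 and *Phc1* farthest to the left at -2.80, and 5 of the 6 PRC1.6 genes are below 0.

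The HP1 chromobox genes, which share the chromodomain but bind another histone mark, and of which Cbx3 is also known as a part of PRC1.6, were lower in NPCs, with *Cbx1* at -1.69 (adjusted p = 4.00e-05), *Cbx3* at -0.64 (adjusted p = 0.0125) and *Cbx5* at -0.70 (adjusted p = 0.00467). With library totals and with the reference genes only 1 of these 3 was still called. Of the Ink4 genes, textbook targets of PRC1 that arrest the cell cycle, *Cdkn2a* was at -0.30 (adjusted p = 0.269; above 0 with library totals and reference genes) and *Cdkn2b* rose from 1.24 to 6.27 TMM CPM (2.39, adjusted p = 4.41e-04). Of 12 germline genes known as targets of PRC1.6, 11 were tested (*Tex101* was not), of which 8 were lower in NPCs, beside 31.9% of all genes, and none was called higher. With library totals and with the reference genes *Smc1b* was higher (1.36, adjusted p = 0.0323, and 1.54, adjusted p = 0.0219). Under these scalings 70.1% and 75.0% of all genes called were higher in NPCs. *Stk31* fell most among those with a mean of at least 1 CPM, from 9.38 to 0.423 TMM CPM (-4.73, adjusted p = 1.40e-04). The number that fell was 4 with library totals and with the reference genes, and 5 to 8 when single libraries were left out.

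For the pair of members with the largest rise and the pair with the largest fall, the genes with the most similar profile over the 8 libraries were listed by Pearson's r of log2 TMM CPM. These libraries form 2 clusters by stage, so that a high r mostly reflects the stage difference, and r is given as a description. For *Cbx8* they were *Ncstn* (0.997), *Zfand4* (0.996) and *Rusf1* (0.995). For *Bmi1* they were *Brsk2* (0.998), *Miat* (0.997) and *Amer2* (0.997). For *Cbx7* they were *Ano9* (0.999), *Ipmk* (0.998) and *Topors* (0.997), and for *Pcgf6* they were *Rsl24d1* (0.999), *Tcea1* (0.996) and *Nutf2* (0.996).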

How the data were processed

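Paired-end RNA-seq libraries of ESCs and NPCs were made with a TruSeq Stranded mRNA or NEBNext Ultra II kit, and the labels do not say which library had which. Alignment by the authors was to mm39, masked at JF1 SNPs, with TopHat2 and refGene-derived gene models, and properly paired reads of mapping quality 20 or above were retained. The deposited values are raw read counts of each gene, without normalization and with both alleles together. The submitters' processing notes name HTSeq, DESeq2 and edgeR, and how HTSeq treated the strand is not given. Without it, antisense overlaps of *Cbx7* with *Apobec3* (3.13% of exon bases), *Pcgf2* with *Cisd3* (3.93%) and *Rnf2* with *Trmt1l* (3.84%) could add or remove reads. Reads without a gene (5.76% to 10.9% per library) or ambiguous (0.355% to 0.554%) were left out.

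Counts were analysed with edgeR 4.0.16 in R 4.3.3 (TMM, filterByExpr with a minimum count of 10, robust quasi-likelihood fit of 4 group means), and SE values were derived from the F statistic. Alternatives were scaling to *Gapdh*, *Gusb* and *Tbp*, to library totals or by RLE, DESeq2 1.42.0, limma-voom 3.58.1, other filters, a fit without robust estimation, a replicate block, additive terms, only the 4 libraries of a cross, a 2-fold threshold, and each library left out. Exon lengths and positions came from GENCODE for GRCm39. The scripts were tested on simulated counts. Replicates differed beyond sampling noise. 1 gene of the PRC1 lists is not reported here and was left out of the lists and shares. All 9 members were named, as was every other gene of the lists of other canonical, other Pcgf, variant core, HP1 and Ink4 genes. Of the other lists the largest rise and fall with an adjusted p below 0.05 and a mean of at least 1 CPM were named. For likeness, the 3 genes of highest r with a mean of at least 1 CPM were named (log2 CPM, prior count 2) for the members with the 2 largest rises and falls. The members and lists were chosen with earlier results of these data known.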

Additional observations from a re-analysis of the deposited data

Results flagged for a closer look

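*Ring1* in NPC J/B replicate 1, at 41.2 TMM CPM, stood apart from the other 3 NPC libraries (29.3 to 30.6), with a gap to the nearest of 0.886 of the range of the 4 libraries, above Dixon's 95% value of 0.829. It was the only such value among 18 checks, 9 genes in each of the 2 stages, and chance flags about 1 in 20 groups. Without this library the rise of *Ring1* in J/B was 1.17, against 1.42 (adjusted p = 0.00982, edgeR) with it. The J/B NPC group then held 1 library, so no p-value is given for that fit.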

How the results depend on the processing

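Over both crosses, *Cbx2*, *Cbx7*, *Cbx8*, *Bmi1*, *Pcgf2*, *Pcgf6* and *Ring1* kept their direction and their call under all 18 alternatives run for each, and the number of members called was 7 to 9. Turned in sign were, with library totals, *Rnf2* over both crosses (0.074), in B/J (0.087) and in J/B (0.061) and *Cbx6* in J/B (0.18), and with the reference genes *Rnf2* (0.23, 0.13 and 0.34) and *Cbx6* over both crosses (0.013) and in J/B (0.45). With the reference genes, *Pcgf2* (-0.48, adjusted p = 0.133) and *Pcgf6* (-0.64, adjusted p = 0.122) lost their call in J/B. *Rnf2* passed over both crosses with additive terms (-0.41, adjusted p = 0.0376). With each library left out, 5 to 8 members were called in B/J, and 5700 to 8475 of all genes in J/B. Of all genes, DESeq2 called 11 in the interaction, 10 between crosses in ESCs and 70 between crosses in NPCs, and no low-count filter gave 2 in ESCs and 5 in NPCs. The call between crosses in NPCs was at 0 with library totals and with the reference genes, and at 0 to 1 with libraries left out. The causes were not tested.

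Same-numbered replicates deviated together within a stage (r = 0.518 in ESCs, 0.587 in NPCs) and not across stages (0.0489 to 0.0915). The labels do not say what a number marks, and the fit of the report does not use it. With a replicate block, 9 members were called, beside 12010 of the 16399 genes tested. *Rnf2* was then at -0.39 (adjusted p = 0.0433), and 0 genes were called between crosses in NPCs. Shares moved with the length used, in percentage points between NPCs and ESCs. Without length they were -51.4 for *Cbx7* (-55.7 per kb of exon), 36.6 for *Cbx2* (43.0), -20.2 for *Pcgf2* (-14.3), -16.3 for *Pcgf6* (-20.5), 10.4 for *Bmi1* (16.2) and 14.2 for *Ring1* (17.5). With the longest coding transcript they were -9.32 for *Pcgf2*, -25.7 for *Pcgf6* and 13.0 for *Bmi1*. The 8 to 21 reads of *Cbx8* per ESC library limit the precision of its fold change.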
